A study of Mus musculus with 48 samples.

Results

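The 10 genes described here form the core of the Nrf2 pathway: *Nfe2l2*, which encodes the transcription factor Nrf2, its inhibitor *Keap1*, and the target genes *Gclc*, *Gclm*, *Slc7a11*, *Gsr*, *Nqo1*, *Ephx1*, *Hmox1* and *Srxn1*. They were chosen by name and not by a rule on measured values, though earlier results of these data were known. Every probe whose accession maps to one of these symbols was taken, which gave 18 of the 41174 probes on the array and 10 of the 18434 genes that could be named. Under basal conditions Keap1 binds Nrf2 in the cytoplasm and directs it to degradation. When reactive electrophiles or oxidants modify cysteines of Keap1, Nrf2 accumulates, enters the nucleus, pairs with small Maf proteins and binds antioxidant response elements near genes of glutathione synthesis, detoxification and antioxidant defence. Nrf2 is controlled mainly through the stability of the protein, so that the level of its mRNA is not a measure of its activity. The pathway bears on a study of selenium (Se) because several antioxidant enzymes are selenoproteins.

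RNA of liver and colon was taken at 12 weeks of age from C57/BL6 mice, described as male in the study's methods, in a cross-over of 2 high-fat diets. Diet H was supplemented with Se and folate and diet L was marginally deficient in both, so that every group received a high-fat diet and no group received chow. The first letter of a group names the diet of the dam in gestation and lactation and the second that of the pup after weaning, giving HH, HL, LH and LL. There were 48 arrays in all, 24 of each tissue, and 2 of the HH liver arrays held the same animal and were averaged, which left 5 HH livers, 6 livers in each of the other groups and 6 colons in each of the 4 groups. The labels give no litters, so mice of 1 group may share a dam, and p-values then rest on pups that are not independent. The labels do not pair livers with colons. By the study's methods both tissues were excised from the offspring of each group, so livers and colons may come in part from the same animals. How many animals they share is not known, and the comparison of tissues treated the 47 samples as independent.

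Each value is a log2 ratio of the Cy3 signal of a mouse to the Cy5 signal of a common reference RNA on the same array, so 0 marks the level of the reference and a difference of 1 is a doubling. The labels call the reference a multi-organ mouse RNA, whereas the methods describe a pool of intestinal and liver RNA, and no dyes were swapped. The share of spots well above background was 55.1% to 66.0% in liver and 66.8% to 73.7% in colon. The 6 measured hepatocyte markers had a mean of 1.82 in liver and -3.87 in colon, and the 8 colon epithelium markers a mean of 0.60 in colon and -4.08 in liver. Xist, an RNA of female cells, lay over 2 log2 units above the tissue's median on 2 liver and 6 colon arrays, the colons being 3 LL, 2 HH, 1 HL and 0 LH. On 4 of the 8 arrays the Y-linked *Eif2s3y* had a log2 Cy3 signal of 6.02 to 7.21, below the lowest of the other arrays, 9.78. All 4 belonged to groups given diet L after weaning: 1 liver of HL, 1 colon of HL and 2 colons of LL. HH and LH held no such array, so this sign of female mice ran with the offspring diet. Leaving out the arrays with Xist, or the 3 mice described next, changed the call of none of the 10 genes by diet, nor between tissues except for *Gsr*, which was called without the arrays with Xist (0.59). Of the mice, 1 HL liver stood apart with a mean of 0.99 over 5 exocrine pancreas markers, 1 LH liver with 1.60 over 4 adipocyte markers, and 1 LL colon with 2.06 over 6 lymphocyte and 0.96 over 8 macrophage markers. The corresponding medians were -2.49, -1.46, -0.03 and -0.71 over all mice of the same tissue. In addition, 3 colons of mice from dams on diet L were low in adipocyte markers, with means of 0.07 and -1.05 in LL and -1.14 in LH beside a median of 2.29, and their part in the colon differences by dam diet was not tested.

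Of the 10 genes, 9 had all their probes well above background on all 24 liver and all 24 colon arrays. The exception was *Slc7a11*, the cystine importer that supplies cysteine for glutathione. Its 3 probes were well above background on 0 liver arrays and on at most 1 colon array, that of the LL colon with high lymphocyte and macrophage markers. No fold change is therefore given for *Slc7a11*. On GRCm38.p6 the regulators lie at chr2:75675513-75704663 (*Nfe2l2*) and chr9:21229730-21239332 (*Keap1*). The glutathione genes lie at chr9:77754535-77794489 (*Gclc*), chr3:122245487-122267215 (*Gclm*), chr3:50364936-50499087 (*Slc7a11*) and chr8:33653238-33698162 (*Gsr*). The other enzymes lie at chr8:107388225-107403205 (*Nqo1*), chr1:180989556-181017569 (*Ephx1*), chr8:75093618-75100593 (*Hmox1*) and chr2:152105524-152111376 (*Srxn1*). Where in the transcript each probe lies was not analysed here.

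The binding site of Nrf2, the antioxidant response element, has the core TGACNNNGC, which reads GCNNNGTCA on the other strand. RefSeq promoter windows of 300 bases on GRCm38.p6, from 250 bases before to 50 bases after a start site, were searched for these letters on both strands. A window was given for 7 of the 10 genes (*Nfe2l2*, *Keap1*, *Gclm*, *Slc7a11*, *Nqo1*, *Ephx1* and *Srxn1*), and the core was found in 3 of these, against 12.4% of all 32851 windows. The sequence before the first annotated base of the gene is shown for both genes whose match lies upstream, since the letters lie before the transcribed part there, with the match in capitals and the strand of the gene read 5′ to 3′. The stretch of *Nfe2l2* is chr2:75704664-75704913 on the minus strand and that of *Gclm* chr3:122245307-122245486 on the plus strand.
Nfe2l2: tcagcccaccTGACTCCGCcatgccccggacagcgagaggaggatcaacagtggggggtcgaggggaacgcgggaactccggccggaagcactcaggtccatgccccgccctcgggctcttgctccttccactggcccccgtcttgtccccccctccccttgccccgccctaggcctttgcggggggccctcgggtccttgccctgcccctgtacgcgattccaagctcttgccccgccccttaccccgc
Gclm: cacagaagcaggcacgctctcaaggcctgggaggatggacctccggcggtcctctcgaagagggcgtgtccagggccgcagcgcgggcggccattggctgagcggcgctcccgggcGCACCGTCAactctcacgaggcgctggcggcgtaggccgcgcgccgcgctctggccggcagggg
The match in *Srxn1*, GCTAGGTCA, begins 28 bases after the start site in the window chr2:152105274-152105573 on the plus strand. A match is a description of the letters and not evidence of binding.

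The largest differences among these genes lay between the tissues. Relative to the reference, the detoxifying enzyme *Ephx1*, both subunits of glutamate-cysteine ligase (*Gclc* and *Gclm*) and *Hmox1* were higher in liver, whereas *Nfe2l2* itself and *Nqo1* were higher in colon. At a fold change over 1.5 and an adjusted p under 0.05, limma across all 8 groups called 6 of the 10 genes by their lead probe (where a gene has several, the one brightest on average in Cy3), 4 of them higher and 2 lower in liver. The same rule called 30.4% of all probes, 14.6% higher and 15.7% lower in liver. No mouse of one tissue overlapped with the other tissue for 4 of the genes (*Nfe2l2*, *Gclc*, *Gclm* and *Ephx1*) and for 23.2% of all probes. Every slide held 1 tissue and each tissue was scanned on a day of its own, so slide and scan day cannot be told apart from tissue. In whole tissue, fewer cells of a type and less RNA per cell cannot be told apart either.

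**Figure D1:**
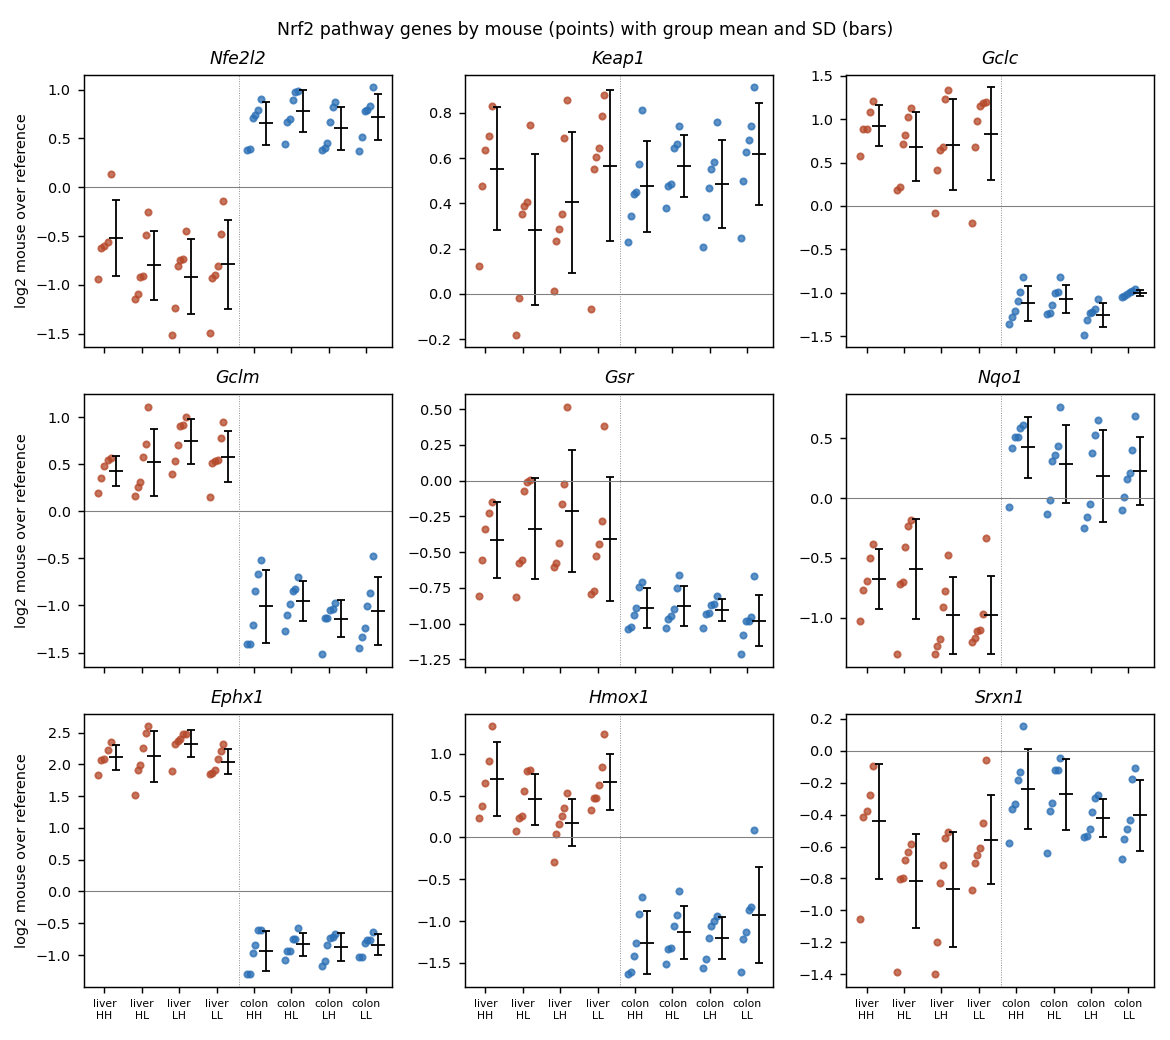
Log2 mouse over reference (y axis) of the lead probe of the 9 genes well above background, for each mouse (points, red for liver and blue for colon) of the 4 diet groups (x axis), with the group mean and SD beside them. The tissues separate for *Nfe2l2*, *Gclc*, *Gclm* and *Ephx1*, whereas the diet groups overlap within each tissue for all 9 genes.

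*Nfe2l2* ranged from -1.51 through a median of -0.80 to 0.13 over the 23 livers, and from 0.38 through 0.73 to 1.03 over the 24 colons. No liver reached the lowest colon. The difference, liver minus colon, was -1.45 on the log2 scale (SE 0.09), a 2.72-fold lower level in liver (limma, adjusted p = 5.61e-19). A second probe of the gene gave -1.05 (SE 0.07; limma, adjusted p = 9.85e-19). *Keap1*, the adaptor that binds Nrf2 and hands it to the Cul3 ubiquitin ligase, lay between -0.18 and 0.88 in liver and between 0.21 and 0.91 in colon. Its tissues overlapped over most of the range, and the difference of -0.08 had a 95% interval of -0.23 to 0.06 (limma, adjusted p = 0.319). With median centring in place of loess, which moved the median of all probes from 0.01 to 0.22, the difference was -0.59 and was called (adjusted p = 5.54e-08).

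Of the genes of glutathione synthesis and recycling, *Gclc* and *Gclm* were called, both higher in liver. *Gclc* encodes the catalytic subunit of glutamate-cysteine ligase, the rate-limiting enzyme of the pathway, and *Gclm* its modifier subunit. *Gclc* ran from -0.19 through a median of 0.88 to 1.34 in liver and from -1.48 through -1.08 to -0.81 in colon. *Gclm* ran from 0.15 through 0.54 to 1.11 in liver and from -1.52 through -1.05 to -0.47 in colon. For both subunits the lowest liver lay above the highest colon. The difference was 1.90 (SE 0.09) for *Gclc*, 3.72-fold, and 1.61 (SE 0.08) for *Gclm*, 3.05-fold (limma, adjusted p = 8.55e-23 and 1.96e-22). *Gsr*, the reductase that returns oxidised glutathione to its reduced form, was 0.57 higher in liver (SE 0.08; limma, adjusted p = 2.22e-08). That is 1.48-fold and just below the limit, and the tissues overlapped, with livers from -0.82 to 0.52 and colons from -1.22 to -0.66. The other *Gsr* probes gave 0.70 and 0.62 and were called, so the call for this gene turned on the choice of probe.

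The detoxifying and antioxidant enzymes went in both directions. *Ephx1*, the microsomal hydrolase that opens epoxides, showed the widest separation of the 10 genes. It ran from 1.52 through 2.21 to 2.60 in liver and from -1.30 through -0.82 to -0.57 in colon. The difference of 3.02 (SE 0.07) was 8.14-fold (limma, adjusted p = 1.95e-35), and a second probe gave 3.03. *Hmox1*, the inducible haem oxygenase, ran from -0.29 through 0.47 to 1.33 in liver and from -1.63 through -1.17 to 0.09 in colon. The difference was 1.63 (SE 0.10), 3.09-fold (limma, adjusted p = 1.30e-18). The highest colon was the LL mouse with high lymphocyte and macrophage markers, and the next, at -0.64, lay below every liver. Macrophages take up red cells and express *Hmox1*, and the mean of 8 of 9 macrophage markers ranged from 1.1 to 2.79 in liver and from -0.90 to 0.96 in colon. Their part in the difference of *Hmox1* was not tested.

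*Nqo1*, the quinone reductase that is often read as an indicator of Nrf2 activity, was lower in liver. It ran from -1.31 through -0.77 to -0.18 in liver and from -0.25 through 0.37 to 0.76 in colon, so that the ranges met only at their ends. The difference of -1.09 (SE 0.09) was a 2.13-fold lower level in liver (limma, adjusted p = 1.58e-14). *Srxn1*, which repairs over-oxidised peroxiredoxins, gave no single direction. Its lead probe differed by -0.34 (SE 0.08), whereas the other probes gave 0.26 and 0.32 (each SE 0.08), with adjusted p of 0.000144, 0.0024 and 0.000775 by limma, and all 3 lay below the fold limit. With median centring the lead probe gave -0.80 and was called.

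**Figure D2:**
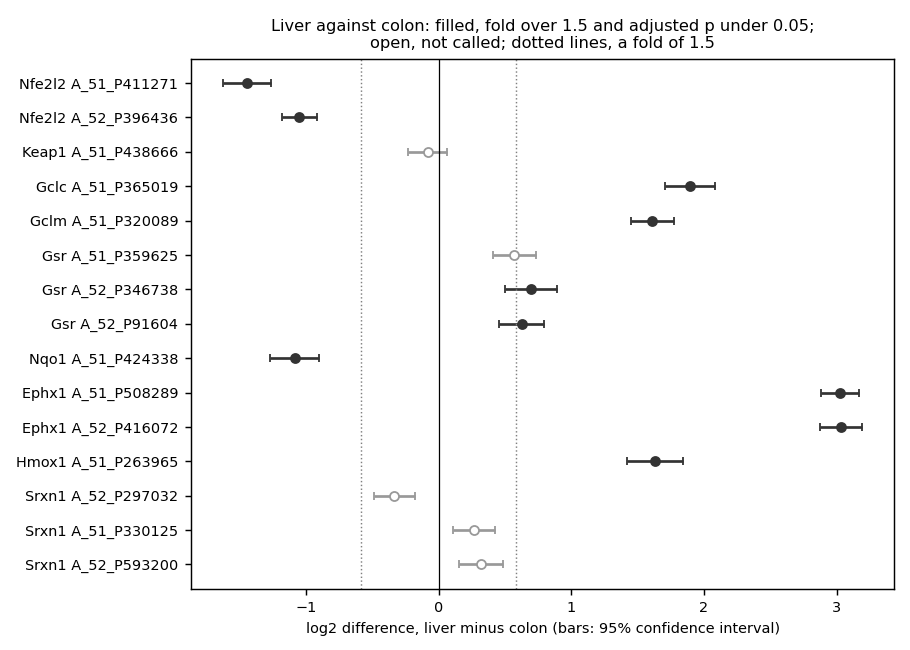
Log2 difference, liver minus colon (x axis), for each of the 15 probes of the 9 genes well above background, with the 95% confidence interval of the limma fit across 8 groups. Filled points passed a fold of 1.5 (dotted lines) and an adjusted p of 0.05, with *Ephx1* at 3.02 and *Nfe2l2* at -1.45 at the ends, and the 3 *Srxn1* probes fell on both sides of 0.

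Other genes of the pathway lay on both sides as well. Of 30 measured Nrf2 target genes outside the 10, limma called 14 higher and 11 lower in liver, beside 14.6% and 15.7% of all probes. Among the conjugating and transport genes, *Mgst1* (3.29), *Gstm1* (2.26), *Gsta1* (2.12) and the bile exporter *Abcc2* (4.98) were higher in liver. The class was not uniform, since the group means of *Gstm2* overlapped between tissues. They ran from -0.05 to 0.52 in liver and from -0.001 to 0.14 in colon. *Cat*, the catalase (4.35), and *Aox1* (3.86) were higher in liver as well. The genes that supply NADPH went the other way in 4 of 5 cases: *G6pdx* differed by -2.30, *Tkt* by -1.30, *Taldo1* by -1.28 and *Pgd* by -0.88, whereas *Me1* differed by 1.89. *Gpx2*, the selenium-dependent glutathione peroxidase of the gut epithelium, was 19.3-fold lower in liver (-4.27). The carbonyl reductase *Cbr3* was 8.06-fold lower (-3.01) and *Akr1b8* 6.47-fold lower (-2.69). Of 11 partners and adaptors of Nrf2 and Keap1, *Mafg* (1.39) and *Sqstm1* (1.01) were called higher and *Mafk* (-1.02) and *Bach1* (-0.63), a repressor at the same elements, lower in liver. *Cul3* (0.02) and *Rbx1* (0.09), the ligase that Keap1 serves, were not called. Of 6 genes of glutathione metabolism beyond the members, 4 were called, all higher in liver, among them *Gls2* (6.51) and *Cth* (3.34). *Gss*, the enzyme that completes glutathione, differed by 0.03 and was not called. The median difference was 0.40 over the 30 targets, -0.07 over the 11 partners and 1.85 over the 6 genes of glutathione metabolism, beside 0.01 over all probes.

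**Figure D3:**
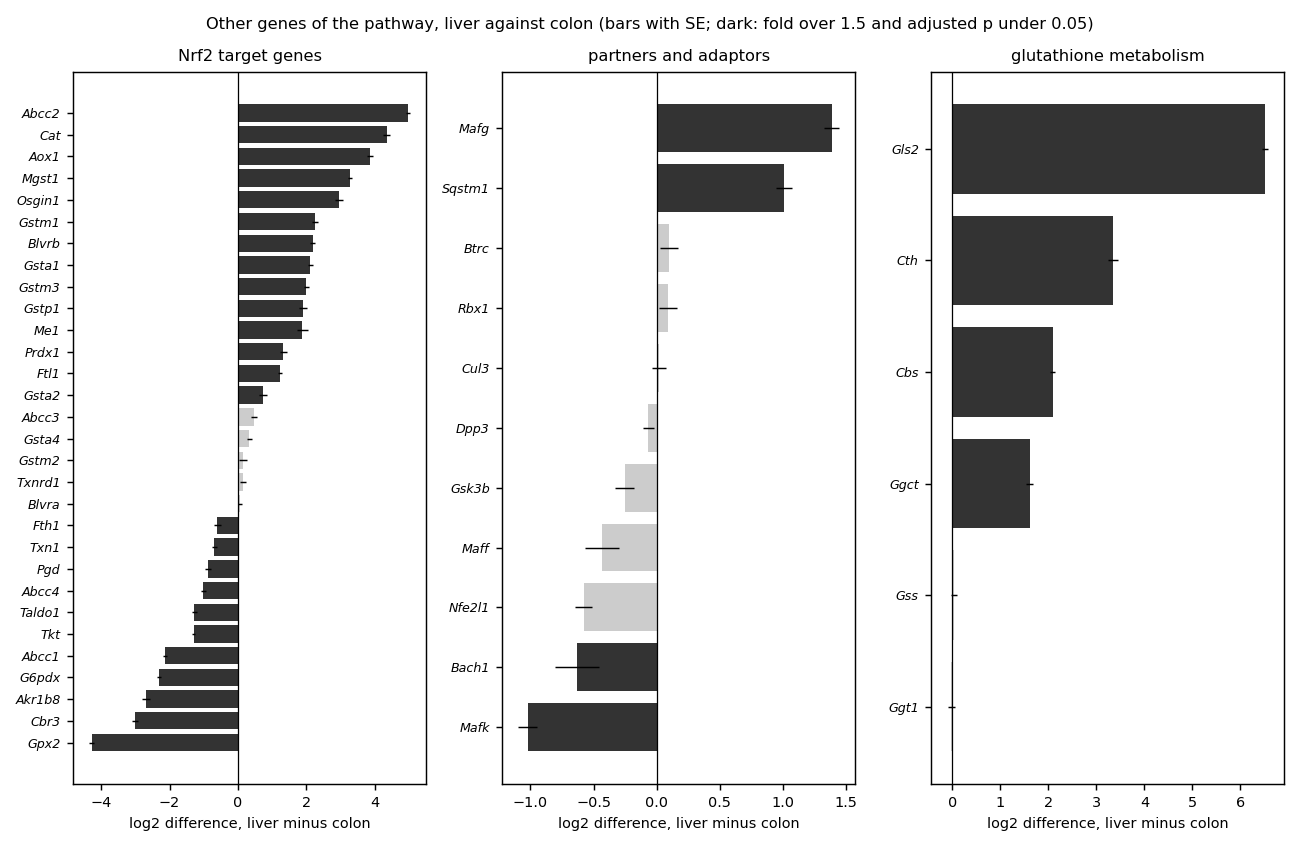
Log2 difference, liver minus colon (x axis), with its SE for 30 other Nrf2 target genes, 11 partners and adaptors and 6 genes of glutathione metabolism (y axis), 1 lead probe a gene. Dark bars passed a fold of 1.5 and an adjusted p of 0.05, with *Abcc2* at 4.98 and *Gpx2* at -4.27 at the ends of the target genes.

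The diets were compared with HH and by the factors of dam diet, offspring diet and their interaction, to ask whether low Se and folate before or after weaning moved these genes. In liver, limma called 0 of the 10 genes and 0 of the 18 probes in each of the 6 contrasts, and 0% of all probes. At an unadjusted p under 0.05, 2 of the 10 lead probes differed between HH and LH, both lower in LH, where 12% of all probes did so in either direction and 6.14% were lower. There were 0 in HH *vs.* HL (4.37% of all probes) and 0 in HH *vs.* LL (3.45%). The dam diet gave 1 (4.16%), the offspring diet 0 (1.37%) and the interaction 2 (11.4%). In colon limma likewise called 0 genes, 0 probes and 0% of all probes in the 6 contrasts. At an unadjusted p under 0.05 the offspring diet gave 1 of the 10 (2.03%). The other colon contrasts gave 0: HH *vs.* LH (3.24%), HH *vs.* HL (1.46%), HH *vs.* LL (1.72%), dam diet (2.11%) and interaction (1.79%). The mice of HH overlapped with those of each other group for all 9 measured genes in both tissues. Groups without overlap were found for 1.55% (LH), 0.209% (HL) and 0.333% (LL) of all probes in liver, and for 0.177%, 0.0777% and 0.0389% in colon.

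**Figure D4:**
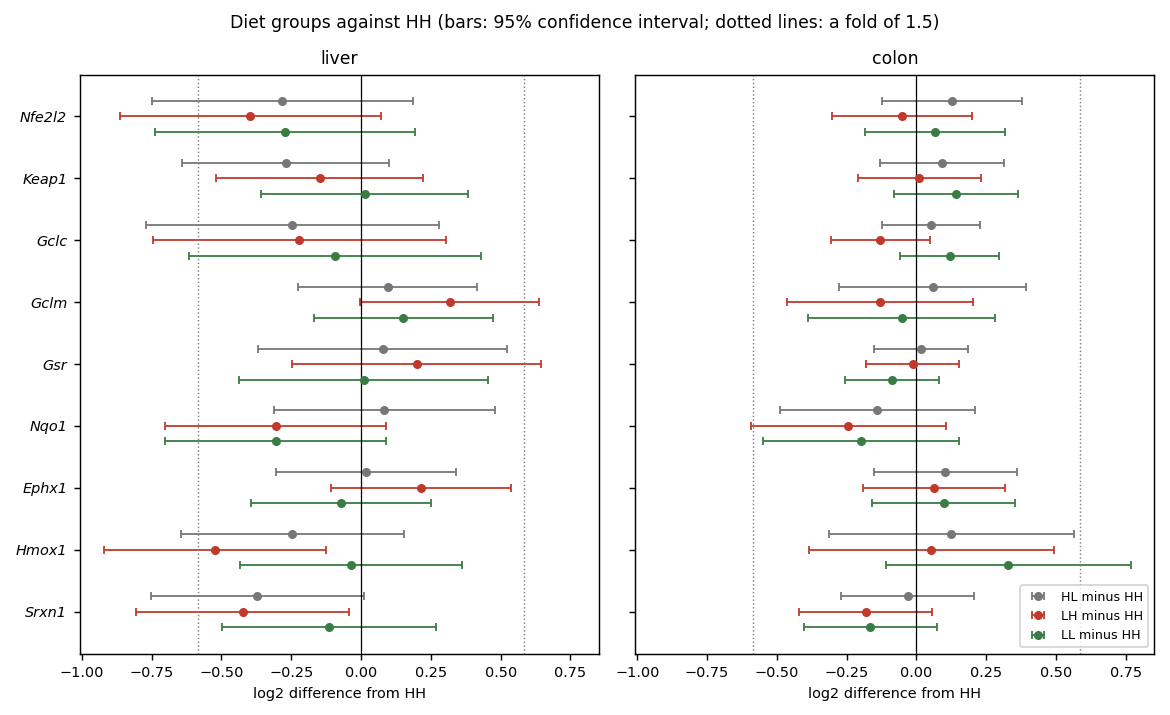
Log2 difference of HL, LH and LL from HH (x axis) for the lead probes of 9 genes (y axis) in liver and colon, with 95% confidence intervals of the limma fit and dotted lines at a fold of 1.5. All points lay within a fold of 1.5, and in liver the intervals of *Hmox1* and *Srxn1* for LH minus HH excluded 0.

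The genes with the lowest unadjusted p in liver were *Hmox1*, *Srxn1* and *Nqo1*. *Hmox1* measured 0.23, 0.37, 0.65, 0.91 and 1.33 in the 5 HH livers, while the LH livers ran from -0.29 through a median of 0.21 to 0.53. The LH values lay lower and 3 of the 6 were below every HH liver, but the groups overlapped. The difference, LH minus HH, was -0.52 (SE 0.19), a 1.44-fold lower level (limma, adjusted p = 0.289). The 95% interval ran from -0.92 to -0.13. Without the HH mouse at 1.33 the difference was -0.37 (limma, adjusted p = 0.382) and no longer passed an unadjusted p of 0.05, nor did it with median centring in place of loess (-0.39, adjusted p = 0.471). In HL the livers ran from 0.08 to 0.80 and in LL from 0.32 to 1.24, with means of 0.45 and 0.66, beside the HH mean of 0.70 and the LH mean of 0.18. The interaction of dam and offspring diet was 0.73 (SE 0.27; limma, adjusted p = 0.330).

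Mean values of the markers of several cell types also lay apart between the same groups, though limma called 0 of these markers. The mean of 6 of 8 hepatocyte markers was 1.62 in HH (SD 0.14, n = 5) and 1.99 in LH (SD 0.18, n = 6), with 2 of the 6 at an unadjusted p under 0.05, both higher in LH, and 0 called by limma. The mean of 8 of 9 macrophage markers was 1.98 in HH (range 1.1 to 2.79), 1.91 in HL (1.52 to 2.19), 1.58 in LH (1.1 to 2.32) and 1.88 in LL (1.65 to 2.20). The 2 HH livers highest in *Hmox1* had the highest macrophage means of their group, 2.79 and 2.40. The HL liver lowest in *Hmox1*, at 0.08, likewise had the lowest macrophage mean of HL, 1.52. The other groups differed from this. The LL liver highest in *Hmox1*, at 1.24, had a macrophage mean of 1.74, below the LL mean of 1.88. The LH liver lowest in *Hmox1*, at -0.29, had a macrophage mean of 1.43, which was not the lowest of LH. The mean of 4 of 5 red cell markers was 0.45 in HH and 0.22 in LH, and 1 of the 4 was well above background on no liver array. The mean of 6 lymphocyte markers was 0.08 in HH and -0.07 in LH. At an unadjusted p under 0.05, 1 of the 8 macrophage, 1 of the 4 red cell and 2 of the 6 lymphocyte markers were lower in LH. So was 1 of the 8 colon epithelium markers. Of all probes 12% passed that p in either direction. All 8 macrophage markers were well above background on every liver array. The part of these cell types in the difference of *Hmox1*, or of the other genes between HH and LH, was not tested.

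*Srxn1* also had its lowest liver mean in LH, -0.87, beside -0.44 in HH, -0.81 in HL and -0.56 in LL. Its lead probe measured -1.05, -0.41, -0.38, -0.28 and -0.09 in HH and ran from -1.40 through -0.77 to -0.51 in LH. Of the LH livers 2 lay below every HH liver, and 1 HH liver, at -1.05, lay among the lower LH values. The difference was -0.42 (SE 0.18), 1.34-fold (limma, adjusted p = 0.364), and the interaction was 0.68 (SE 0.25; limma, adjusted p = 0.339). The other probes of *Srxn1* gave -0.26 and -0.30 for LH minus HH and did not pass an unadjusted p of 0.05. The lead probe itself did not pass it with median centring (-0.33), without the 3 mice with high markers of another tissue (-0.36), or in 6 of the 23 fits that left out 1 liver each (-0.42 to -0.32). A second probe of *Nfe2l2* was also lower in LH by unadjusted p alone, by -0.44 (SE 0.18; limma, adjusted p = 0.340), where the lead probe of the gene gave -0.40 (adjusted p = 0.499).

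*Nqo1* was lower in the livers of mice whose dams had eaten diet L, by unadjusted p alone. It measured -1.03, -0.77, -0.69, -0.50 and -0.38 in HH and ran from -1.31 through -0.56 to -0.18 in HL, from -1.30 through -1.04 to -0.48 in LH and from -1.20 through -1.11 to -0.33 in LL. The medians of LH and LL were the lowest, but 3 of the 6 LH livers lay within the range of HH, as did 1 LL liver, and another LL liver lay above every HH liver. The effect of dam diet was -0.35 (SE 0.13), a 1.27-fold lower level (limma, adjusted p = 0.999).

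The other lead probes showed differences of both signs that did not pass an unadjusted p of 0.05 in liver. LH minus HH was 0.32 for *Gclm* (SE 0.15; limma, adjusted p = 0.424), 0.21 for *Ephx1* (adjusted p = 0.611) and 0.20 for *Gsr* (adjusted p = 0.757). It was -0.15 for *Keap1* and -0.22 for *Gclc* (limma, adjusted p = 0.792 and 0.778). Target genes of the same pathway thus gave values on both sides of 0 in the same animals.

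Each slide held 1 array of every group of a tissue, so HH and LH livers could be set against each other on 6 slides, the HH animal with a pair of arrays serving on 2 of them. *Hmox1* was lower in LH on 6 of 6 slides, by -1.08 to -0.08. The largest differences, -1.08 and -0.97, came from the 2 slides with the repeated HH animal, which is the HH mouse at 1.33. *Srxn1* was lower on 5 of 6, *Nfe2l2* and *Nqo1* on 4 of 6, and *Keap1* and *Gclc* on 3 of 6. *Ephx1* was higher in LH on 6 of 6 slides, by 0.02 to 0.34, and *Gclm* on 5 of 6. How many of all probes kept the same sign on every slide was not counted. With slide as a fixed block, the difference of *Hmox1* was -0.63 (limma, adjusted p = 0.0741), which again did not pass the threshold. That fit kept both arrays of the repeated HH animal apart, so its p counts 5 HH animals as 6, and without slide the same split also gave -0.63 (adjusted p = 0.147).

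**Figure D5:**
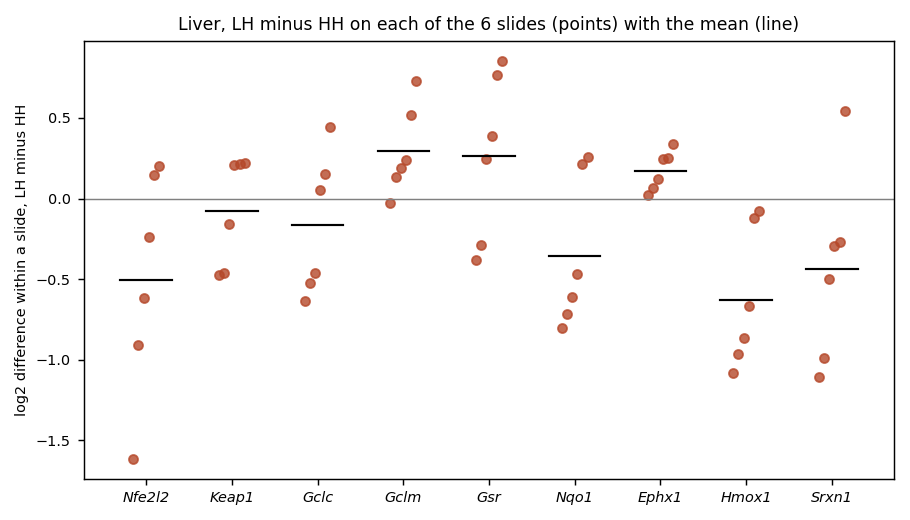
Log2 difference, LH minus HH, between the arrays of the same slide in liver (y axis) for the lead probes of 9 genes (x axis), with each of 6 slides as a point and their mean as a line. *Hmox1* lay below 0 and *Ephx1* above 0 on all 6 slides, though not every slide held a different HH animal.

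In colon, *Gclc* was the 1 member with an unadjusted p under 0.05. *Gclc* ran from -1.35 through -1.15 to -0.81 in HH, from -1.24 through -1.07 to -0.82 in HL, from -1.48 through -1.23 to -1.07 in LH and from -1.05 through -1.0 to -0.95 in LL. The LL colons lay close together inside the range of HH. The effect of offspring diet was 0.15 (SE 0.06), 1.11-fold (limma, adjusted p = 1.00). Over 15 other settings it ran from 0.12 to 0.24, with an unadjusted p by limma of 0.00495 to 0.257, so not every setting passed 0.05. The 24 fits that left out 1 colon each did pass it. The colons low in the Y-linked *Eif2s3y* all belonged to HL or LL, and leaving out these alone as a set was not tested. The second *Nfe2l2* probe gave 0.13 in the same contrast and -0.10 for dam diet, both at an unadjusted p under 0.05 but with an adjusted p of 1.00, whereas its lead probe gave 0.12 and -0.06 and passed neither.

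*Srxn1* in colon ran from -0.58 through -0.26 to 0.15 in HH, from -0.64 through -0.23 to -0.04 in HL, from -0.54 through -0.44 to -0.28 in LH and from -0.68 through -0.46 to -0.10 in LL. The groups overlapped, and dam diet gave -0.16 (SE 0.08; limma, adjusted p = 1.00). *Hmox1* in colon ran from -1.63 through -1.33 to -0.71 in HH, from -1.51 to -0.64 in HL, from -1.56 to -0.94 in LH and from -1.61 through -1.0 to 0.09 in LL. The LL colon at 0.09 stood above all others and was the mouse with high lymphocyte and macrophage markers. LL minus HH was 0.33 (SE 0.21; limma, adjusted p = 1.00), and 0.13 without that mouse.

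The 95% intervals of the diet differences were narrower for most of the genes in colon. In colon, 25 of the 27 intervals of the 9 genes against HH lay inside a fold of 1.5, and for 7 genes (*Nfe2l2*, *Keap1*, *Gclc*, *Gclm*, *Gsr*, *Ephx1* and *Srxn1*) all 3 did. In liver only 12 of 27 did, and *Ephx1* was the 1 gene for which all 3 did. Mice of 1 group varied more in liver for *Gclc* (pooled SD 0.45 against 0.15 in colon), *Gsr* (0.38 against 0.14) and *Nfe2l2* (0.40 against 0.22), and about as much in both tissues for *Nqo1* (0.34 against 0.32). The dam diet effect was also set against itself between tissues, and limma called 0 of the 10 genes and 0% of all probes. At an unadjusted p under 0.05 there were 0 of the 10 and 3.51% of all probes.

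The wider lists were not called by diet either. In liver, HH *vs.* LH, limma called 0 of the 30 other target genes and 5 had an unadjusted p under 0.05, where 12% of all probes did. *Cbr3* (-0.64, SE 0.21), *Aox1* (-0.37, SE 0.14) and *Abcc1* (-0.19, SE 0.08) were lower in LH, whereas *Cat* (0.53, SE 0.20) and *Abcc2* (0.28, SE 0.10) were higher, with adjusted p from 0.254 to 0.376. Of the 11 partners 1 had such a p, *Cul3* (0.30, SE 0.13; adjusted p = 0.365), and of the 6 genes of glutathione metabolism 0. In colon 3 of the 30 target genes had an unadjusted p under 0.05 in HH *vs.* LH, where 3.24% of all probes did, all lower in LH: *Akr1b8* (-0.41), *G6pdx* (-0.19) and *Gstp1* (-0.19), each with an adjusted p of 1.00. The medians of the 30 target genes were -0.09 in liver and -0.05 in colon, beside -0.01 and 0.00 over all probes.

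The members were also compared from mouse to mouse. Each gene's values were taken as deviations from the mean of their group and correlated with those of *Nqo1* over the 23 livers and 24 colons, as a description. *Srxn1* gave Pearson's r of 0.83 in liver and -0.37 in colon, *Nfe2l2* -0.01 and 0.77, *Keap1* -0.30 and -0.73, and *Hmox1* 0.26 and -0.61. The sign of r differed between the tissues for *Srxn1* and *Hmox1*, but whether r itself differed between tissues was not tested. Over 18061 genes, those most like *Nqo1* by the mean of both r included *Crb3* (0.77), *Hnrnpa1* (0.75), *Kctd18* (0.72) and *Timm23* (0.71), and the highest member, *Nfe2l2*, ranked 1012. The points of each correlation share an array, a dye pair and a loess curve, and the mice share slides.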

How the data were processed

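RNA of 24 livers and 24 colons was hybridised to Agilent arrays with Cy3-labelled sample and Cy5-labelled reference. The deposited scanner files hold spot intensity from Agilent Feature Extraction 10.10.1.1. A second deposited file, from the authors' normalization, gives log2 ratios of opposite sign and served as an alternative. It was matched to the scanner values (r at least 0.997 once turned) and its column medians ran from -0.014 to 0.0077. The authors' notes name limma and R 3.0.2. Here a local background brighter than its spot was first set to the array's median background of that channel. Background was then corrected by normexp (offset 50) and ratios by global loess, flagged and control spots were left out, and spots of a probe averaged (R 4.3.3, limma 3.58.1). Scale, centring and direction of the deposited table were thereby settled. Accessions matched RefSeq for 27050 of 41174 probes, and 14124 stayed unnamed. Of 32 listed target genes 30 matched. The 2 HH liver arrays of one animal (r = 0.81 between their deviations, at most 0.26 for other HH pairs) were averaged. limma fitted 4 groups per tissue, or 8 groups between tissues, with Benjamini-Hochberg adjustment over all probes. A call needed a fold over 1.5 and an adjusted p under 0.05. The text names all 10 members. Of the wider lists it names genes of largest or lowest-p difference and others picked by function. Members and lists were chosen with earlier results of these data known. The fit was tested on simulated data. The number of arrays limits precision. Of the genes most like *Nqo1*, 1 is not reported here.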

Additional observations from a re-analysis of the deposited data

Results flagged for a closer look

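Dixon's test for the single most distant mouse was applied to the 9 measured genes in the 8 groups, 72 groups in all, of which chance picks out about 1 in 20, and it marked 7. The LL liver of replicate 3 was marked for 3 genes: it was the lowest LL liver for *Keap1* (-0.0657) and *Gclc* (-0.19) and the highest for *Nqo1* (-0.33). In liver, *Ephx1* was lowest in LH replicate 1 (1.90) and *Srxn1* in HL replicate 5 (-1.39). In colon, *Gclm* was lowest in LH replicate 1 (-1.52) and *Nqo1* in HH replicate 5 (-0.0766), a mouse whose array was among the 6 with *Xist*. No explanation was tested.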

How the results depend on the processing

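In every diet contrast the count of members called remained 0 under all alternatives, which were 14 to 16 settings a contrast (background, normalization, filter, weights, blocks and samples) and fits that left out 1 mouse each (23 in liver, 24 in colon). Between tissues, *Ephx1*, *Gclc*, *Gclm*, *Hmox1*, *Nfe2l2* and *Nqo1* were called in all 14 settings that gave this contrast and all 47 leave-one-out fits. Median centring in place of loess moved the median of all probes to 0.22, gave -0.59 for *Keap1* and -0.80 for *Srxn1*, both then called, and 0.09 for *Gsr*, and turned the share of calls higher in liver from 48.2% to 57.8%. *Gsr* was called with the Cy3 channel alone (0.62), without the arrays with *Xist* (0.59), with no minimum fold and in 7 leave-one-out fits (0.59 in each). Counts of all probes did change. In liver HH *vs.* LH, 0 probes became 3 with array weights, 106 with all 8 groups in one fit, 17 with only the 2 groups compared, 6 with the repeated animal as 2 mice and 28 with slide as a fixed block and that animal again as 2 mice, and leave-one-out fits gave 0 to 2, with 2 without HL replicate 4 and 1 without LL replicate 4. The liver interaction, 0, became 19, 52 and 3 with array weights, 8 groups and the same slide block. An alternative chosen after seeing the data, without the 3 mice with high markers of another tissue, gave 2. Liver minus colon, 12498 probes, became 20275 with processed signals, 24245 with median centring and 28644 with no minimum fold. The cause was not tested, except that a missing fold limit adds calls by construction. No paired analysis was possible because the labels give no number that pairs mice of different groups, other than by slide, which holds 1 array of each group and was used as the block above. Scan day as a block was not run, since each tissue had 1 day. Low signal limits only *Slc7a11* among the 10 genes.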
